A study of Mus musculus with 13 samples.

Results

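The liver sets the body's iron supply through hepcidin, and the messenger RNAs of both mouse hepcidin genes and of the proteins that sense, carry, release and store iron were measured in livers of old male mice. Some had been given dichloroacetic acid (DCA) or phenobarbital (PB) early in life, and control mice water only. The clearest contrast lay inside the hepcidin pair. Hamp, the hepcidin gene known to control iron, averaged 12.62 ± 0.77 in DCA livers (SD, n = 4), 12.56 ± 0.41 in PB livers (SD, n = 5) and 12.62 ± 0.64 in control livers (SD, n = 4) on a log2 intensity scale. Hamp2, its neighbouring copy, averaged 9.20 ± 0.42 in DCA livers (SD, n = 4), 11.09 ± 1.11 in PB livers (SD, n = 5) and 8.22 ± 0.84 in control livers (SD, n = 4). No iron gene passed the threshold over all genes.

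The set holds 10 genes, of which 9 were found by name among the 18138 gene rows of the array table. The other, Tfr2, stands there under its older name Trfr2. The genes were chosen by their place in iron handling and with earlier results of these data in view, in which Hamp2 and Gdf15 already stood out between PB and control livers. The differences of Hamp2 and Gdf15 between groups are therefore given as descriptions and support nothing. Because 8 of the 10 genes were detected on enough arrays to be tested, no count below covers all 10.

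Hepcidin is a peptide hormone that hepatocytes secrete. It binds ferroportin, the cellular iron exporter encoded by Slc40a1, and causes its removal from the cell surface, so that more hepcidin means less iron released from macrophages, gut and liver into blood. Hepatocytes transcribe Hamp when BMP6, made by sinusoidal endothelial cells, signals through SMAD proteins, when transferrin receptor 2 and HFE register iron-laden transferrin, and when interleukin-6 acts through STAT3. Mice carry a pair of hepcidin genes. In transgenic mice, excess product of Hamp1, here Hamp, causes iron deficiency, whereas excess product of Hamp2 does not.

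All mice were B6C3F1 males, an F1 hybrid of C57BL/6 and C3H that develops liver tumours with age. The DCA group (4 mice) drank dichloroacetic acid, an inhibitor of pyruvate dehydrogenase kinase, at 3.5 g/L for 10 weeks and then water for 90 weeks. The PB group (5 mice) drank phenobarbital, a barbiturate that activates the nuclear receptor CAR in liver, at 0.06% for 10 weeks and then water for 90 weeks, and the control group (4 mice) drank deionized water only. The age label of all mice is 7 days, read here as the age at the start. The chemicals were thus long withdrawn when the liver was taken, and the labels do not say whether the piece of archived frozen liver held tumour. Each array carried the RNA of a mouse with its own animal number, on an Illumina bead array.

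The arrays had a mean raw intensity between 188.6 and 462.1 and between 7141 and 8458 detected genes, and the groups overlapped in mean intensity. Pairs of arrays of the same group had a median correlation of 0.972, and pairs from different groups 0.971. PB replicate 1 stood apart on the second principal component, which held 21.0% of the variance. Some of the values that it moves, but not all, are given without it too. The liver label held for its markers. Of 10 hepatocyte markers, 7 were detected on all 13 arrays, among them Apoa1 and Ttr. Fgb and Tat were detected on none and Alb on 4 of 13, so a gene row of this array that reads near background does not show that its messenger is absent.

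The upstream sequence of the hepcidin pair is shown because Hamp and Hamp2 differed in how their levels were spread over these livers, and because the elements through which BMP and interleukin-6 act on hepcidin lie there. Both runs are RefSeq sequence of build GRCm38.p6, the 250 bases before the start of transcription on the minus strand, at chr7:30944030-30944279 for Hamp and chr7:30924182-30924431 for Hamp2. Capitals mark GGCGCC, the core of a BMP-responsive element, in Hamp, the stretch aligned with it in Hamp2, and in both the match to the STAT type motif.
Hamp: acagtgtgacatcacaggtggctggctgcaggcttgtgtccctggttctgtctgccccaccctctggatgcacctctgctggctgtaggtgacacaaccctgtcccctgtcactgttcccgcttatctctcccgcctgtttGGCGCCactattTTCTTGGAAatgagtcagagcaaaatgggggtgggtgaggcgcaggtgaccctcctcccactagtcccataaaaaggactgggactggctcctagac
Hamp2: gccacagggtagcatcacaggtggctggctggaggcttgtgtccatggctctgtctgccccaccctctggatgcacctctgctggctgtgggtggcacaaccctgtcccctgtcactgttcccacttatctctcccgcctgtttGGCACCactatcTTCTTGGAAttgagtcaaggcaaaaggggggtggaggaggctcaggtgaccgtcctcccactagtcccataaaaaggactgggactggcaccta
The pair were identical at 227 of 247 aligned bases (91.9%). GGCGCC lay 109 to 104 bases before the start of Hamp. Hamp2 differed from it by 1 substitution, G4A, with positions counted from 1 at the 5′ end of the 6 letters, and so held no match. The motif TTCNNNGAA matched as TTCTTGGAA in both, 97 to 89 bases before the start of Hamp and 94 to 86 bases before that of Hamp2. Both motifs read the same on both strands and did not overlap each other here. GGCGCC occurs in 9.59% and TTCNNNGAA in 7.02% of 32851 upstream windows of this length. Counted by gene, 10.8% and 8.13% of 27025 genes hold them in at least 1 window. Among the 8 members with a RefSeq window, Hamp and Tfrc held GGCGCC and Hamp and Hamp2 held TTCNNNGAA. Tfrc held GGCGCC in its window 1 and not in its window 2. A match describes letters and shows no binding, and a missing match says nothing about a factor.

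**Figure D1:**
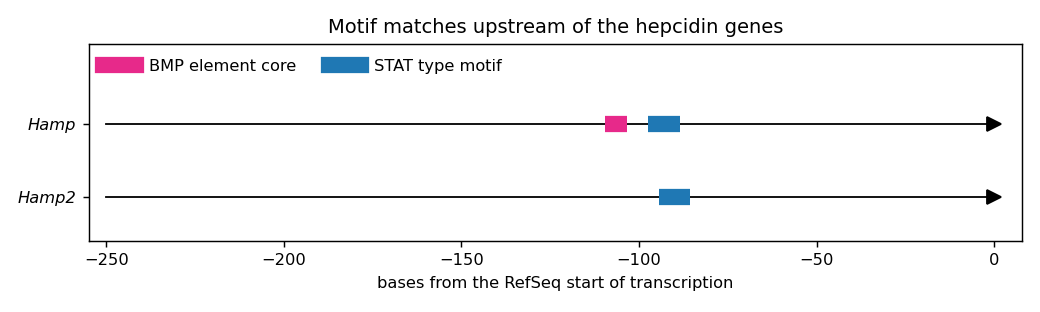
Motif matches in the 250 bases upstream of Hamp and Hamp2, with the x axis in bases from the RefSeq start of transcription (arrow). The BMP element core (pink) was found in Hamp only, 109 to 104 bases before the start, and the STAT type motif (blue) in both.

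Hamp was bright on every array. Its log2 intensity in replicate order was 12.84, 12.81, 13.31 and 11.51 in DCA livers, 12.04, 12.88, 12.23, 12.71 and 12.96 in PB livers, and 11.96, 12.19, 13.004 and 13.31 in control livers. High and low livers stood in each group, and the groups overlapped throughout. PB and control differed by -0.05 ± 0.36 (limma, SE; 95% interval -0.82 to 0.72), DCA and control by 0.00 ± 0.38 (-0.81 to 0.82), and DCA and PB by 0.06 ± 0.36 (-0.71 to 0.83). The intervals reach as far as 0.83 on the log2 scale, so smaller differences either way could not be seen with this number of mice. The spread among mice of a group was wide, with a pooled within-group SD of 0.61 that exceeded that of 94.4% of tested genes, whose median was 0.27. From the lowest to the highest of the 13 arrays, Hamp spanned 3.47-fold.

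Hamp2 had another pattern. Its log2 intensity was 9.16, 8.67, 9.69 and 9.28 in DCA livers, 10.67, 11.90, 12.58, 10.27 and 10.02 in PB livers, and 8.74, 7.28, 7.77 and 9.10 in control livers. Every PB liver lay above every DCA liver and every control liver, while DCA and control livers overlapped. The lowest PB liver, at 10.02, stood above the highest DCA liver, at 9.69, and PB replicates 2 and 3 were far above the other PB livers. The raw intensities ran from 582.5 to 1340 in DCA livers, from 763 to 3614 in PB livers and from 212.1 to 753.2 in control livers, so PB and control livers were separate before any normalization, and DCA livers overlapped both.

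PB and control differed in Hamp2 by 2.86 ± 0.51 (limma, SE; 7.28-fold; 95% interval 1.78 to 3.95), DCA and PB by -1.89 ± 0.51 (0.271-fold; -2.97 to -0.80), and DCA and control by 0.98 ± 0.53 (1.97-fold; -0.17 to 2.13). The limma adjusted p over all genes was 0.0649 for PB against control, 0.170 for DCA against PB and 0.995 for DCA against control, so none passed 0.05. Without PB replicate 1, which stands apart, the difference between PB and control was 2.97. Without PB replicate 4 the adjusted p for PB against control was 0.0428, which is past the threshold, and over all alternatives it ran from 0.0374 to 0.232. Hamp2 varied more within groups than 98.7% of tested genes, with a pooled SD of 0.87, and spanned 39.6-fold over the 13 arrays.

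With 13 arrays a modest relation could not be seen, and none was found from mouse to mouse between the hepcidin genes. Pearson's r between their log2 levels over 13 arrays was -0.03 (permutation p = 0.919, adjusted p = 0.919) and Spearman's rho was -0.05 (permutation p = 0.880, adjusted p = 0.960). The PB liver with the most Hamp2, replicate 3 at 12.58, had 12.23 for Hamp, below the PB median of 12.71. The DCA liver with the least Hamp, replicate 4 at 11.51, had 9.28 for Hamp2, near the DCA mean. The array's probe sequences were not used here. Only the upstream bases of this pair of copies were compared, not their transcripts. Whether either probe also reads the other's transcript was not tested, and both levels are uncertain to that extent.

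**Figure D2:**
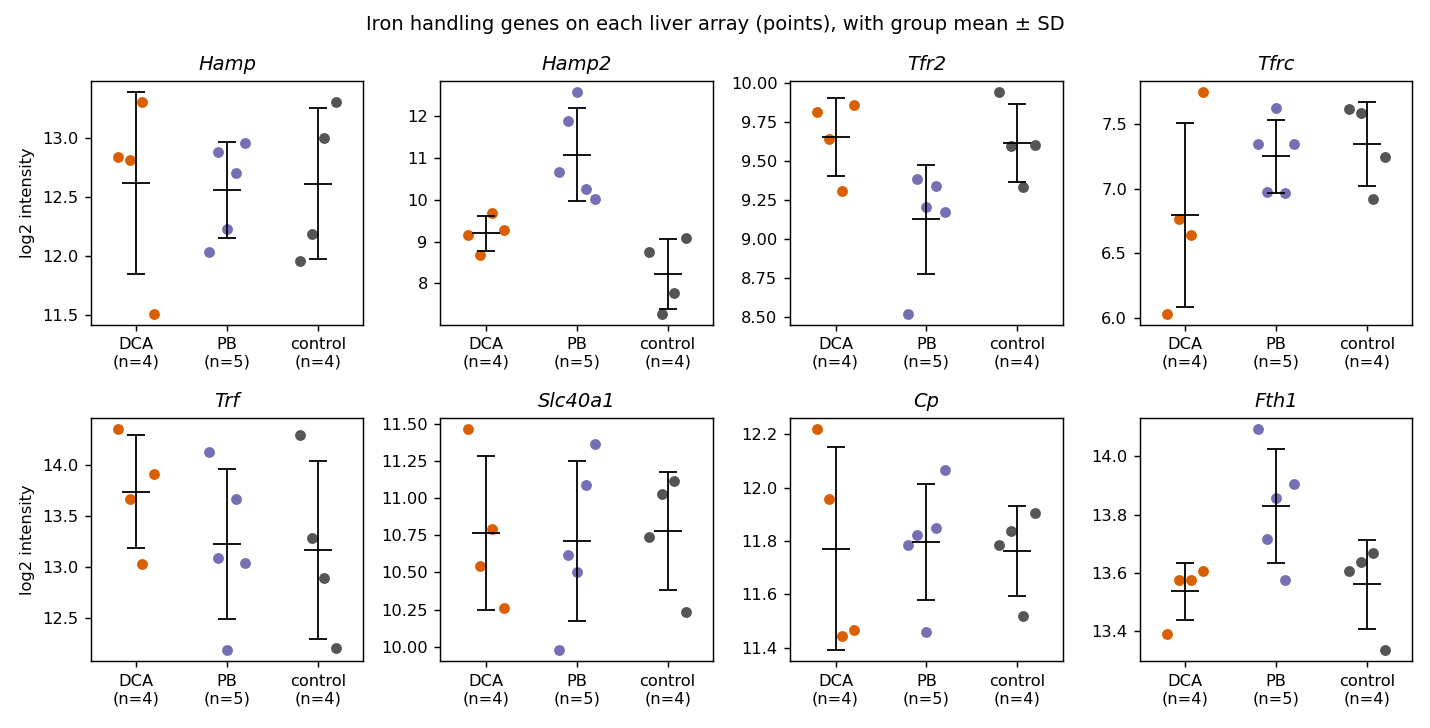
Log2 intensity of the 8 tested iron genes, 1 panel per gene and 1 point per array, with group mean ± SD as horizontal bars and whiskers, for DCA, PB and control livers. Hamp2 is the gene whose PB livers (10.02 to 12.58) lie above all DCA (8.67 to 9.69) and control livers (7.28 to 9.10).

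The BMP side of hepcidin control was read through its ligand and its target genes. Bmp6, the ligand that drives hepcidin, was detected on 0 of 13 arrays, with a lowest detection p-value of 0.213, and was not well above background in any group, so no fold is given and its relation to Hamp could not be computed. Id1, a target gene of BMP and SMAD signalling, was detected on 12 of 13 arrays. Its log2 intensity was 5.59, 5.62, 7.34 and 4.60 in DCA livers, 5.39, 5.32, 5.58, 5.40 and 5.66 in PB livers, and 4.88, 5.57, 5.49 and 6.09 in control livers. DCA livers held both its highest and its lowest value, as they did for Hamp, whose highest value a control liver shared. The lowest Id1 value, 4.60 in DCA replicate 4, was near background. It lay below 4.74, the lowest detected value among single-probe rows of that array, and Id1 was detected on 3 of 4 DCA arrays.

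Livers with more Id1 had more Hamp. Pearson's r over 13 arrays was 0.73 (permutation p = 0.00221, adjusted over 6 relations p = 0.0133) and Spearman's rho was 0.75 (permutation p = 0.00503, adjusted p = 0.0302). After group means were subtracted r was 0.745 (permutation, adjusted p = 0.0107) and rho was 0.68 (permutation, adjusted p = 0.0752), so within groups the call held for r and not for rho. Without the arrays farthest from the Id1 median, DCA replicates 3 and 4, r was 0.65 (permutation p = 0.0188, adjusted p = 0.113), so its call rests on those arrays. With background fitted on all rows r was 0.57 (permutation, adjusted p = 0.232), while rho stayed at 0.75.

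Other BMP target genes are given as a description, since they share arrays and normalization. Over 13 arrays r with Hamp was 0.74 for Id3, 0.60 for Id2, 0.53 for Atoh8 and -0.13 for Smad6. The same genes had r with Hamp2 of -0.41, -0.03, -0.07 and -0.04, and Id1 had 0.01. Id1, Id2, Id3 and Atoh8 thus ran with Hamp and not with Hamp2, and the difference between these correlations was not tested. Id3, like Id1, was detected on 3 of 4 DCA arrays, and its value in DCA replicate 4, 4.62, was near background. Gdf15 had r of 0.05 with Hamp and 0.73 with Hamp2. Gdf15 and Hamp2 were both known to differ between PB and control livers, so the latter r includes that difference and supports nothing. Their r within groups was not computed.

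**Figure D3:**
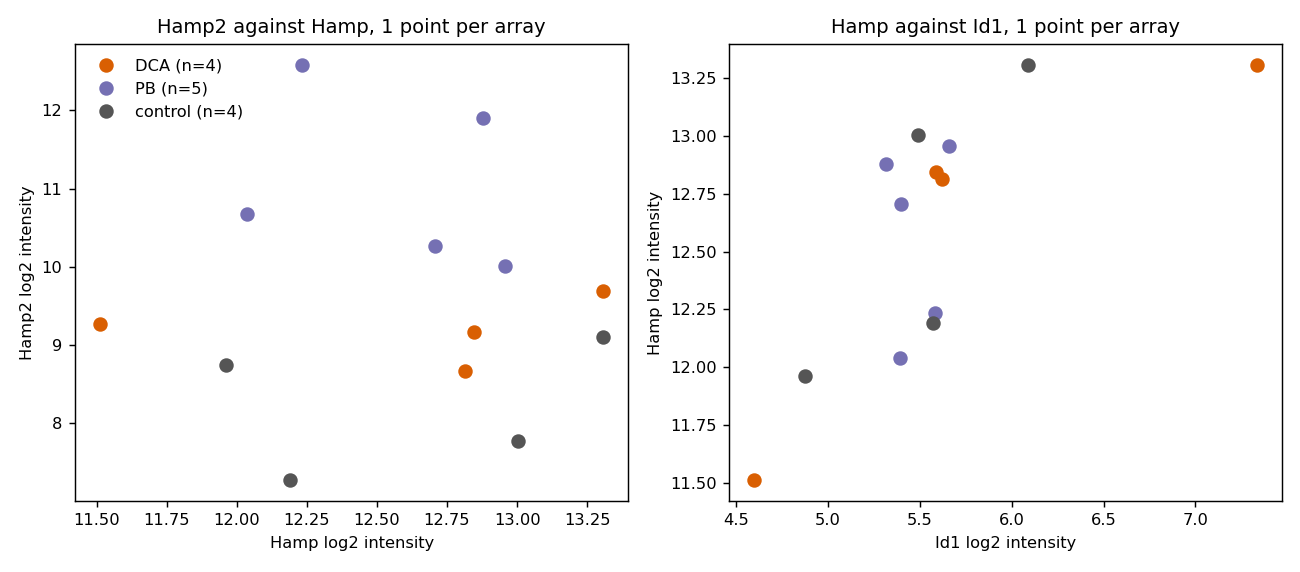
Left, Hamp2 against Hamp, and right, Hamp against Id1, all as log2 intensity with 1 point per array (4 DCA, 5 PB, 4 control). Hamp2 and Hamp show no joint trend (r = -0.03), while Hamp is higher in livers with more Id1 (r = 0.73), with DCA livers at both ends. The lowest Id1 point, DCA replicate 4, is near background.

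The sensor Tfr2 and the uptake receptor Tfrc come next. Tfr2 encodes transferrin receptor 2, which hepatocytes use to register iron-laden transferrin. Its log2 intensity was 9.81, 9.65, 9.31 and 9.86 in DCA livers, 8.52, 9.39, 9.21, 9.34 and 9.17 in PB livers, and 9.94, 9.60, 9.33 and 9.60 in control livers. Most PB livers lay at the low end, but PB replicates 2 and 4 were above the lowest DCA liver and the lowest control liver, so the groups overlapped. PB and control differed by -0.49 ± 0.19 (limma, SE; adjusted p = 0.423), DCA and PB by 0.53 ± 0.19 (adjusted p = 0.245), and DCA and control by 0.04 ± 0.20 (adjusted p = 0.995), none past the threshold. PB replicate 1, the array that stands apart, was the lowest of all. Without it the difference in Tfr2 was -0.34 between PB and control and 0.38 between DCA and PB.

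Tfrc encodes transferrin receptor 1, through which cells take up transferrin, and its messenger is stabilised when cells lack iron. DCA livers read 6.03, 6.77, 6.64 and 7.75 for Tfrc log2 intensity, PB livers 7.35, 6.97, 7.62, 6.96 and 7.34, and control livers 7.62, 7.59, 6.92 and 7.25. In DCA livers 3 of 4 values were below all PB and control values, while the other, replicate 4, was above them all. DCA and control differed by -0.55 ± 0.30 (limma, SE; adjusted p = 0.995; 95% interval -1.18 to 0.09), DCA and PB by -0.45 ± 0.28 (adjusted p = 0.473), and PB and control by -0.10 ± 0.28 (adjusted p = 0.951). The difference between DCA and control was -0.87 without DCA replicate 4 and -0.29 without DCA replicate 1. Tfrc was a dim row, with raw intensities of 151 to 396, and its differences shrank with other processing. DCA and control differed by -0.275 with background fitted on all rows, -0.31 without background correction and -0.33 in the authors' table. DCA and PB differed by -0.20, -0.25 and -0.26 in these settings. DCA replicate 4 was the liver with the most Tfrc and the least Hamp, and over 13 arrays r between Tfrc and Hamp was -0.66, given as a description of 1 pair among 28. Without DCA replicate 4 it was -0.59.

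Trf encodes transferrin, the plasma carrier of iron and the ligand of both receptors. Trf read 14.35, 13.67, 13.02 and 13.91 in DCA livers, 14.13, 13.09, 12.18, 13.67 and 13.03 in PB livers, and 14.29, 13.28, 12.89 and 12.20 in control livers, as log2 intensity. Each group held at least 1 liver above 14, and PB and control livers went down to about 12.2. DCA and control differed by 0.57 ± 0.45 (limma, SE; adjusted p = 0.995; 95% interval -0.40 to 1.54), DCA and PB by 0.52 ± 0.43 (adjusted p = 0.600), and PB and control by 0.05 ± 0.43 (adjusted p = 0.981). The difference between DCA and control was 0.25 without control replicate 4 and 0.96 without control replicate 1, and that between DCA and PB was 0.25 without PB replicate 3. The within-group SD of Trf, 0.73, exceeded that of 97.4% of tested genes. No relation between Trf and Tfrc was found, with r of -0.19 over 13 arrays (permutation p = 0.535, adjusted p = 0.642) and rho of -0.02 (permutation p = 0.960, adjusted p = 0.960). Without control replicate 4 and PB replicate 3, r was 0.0057.

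Iron export was read through Slc40a1 and Cp. Slc40a1 encodes ferroportin, the exporter that hepcidin removes, and is expressed by Kupffer cells as well as hepatocytes. Its log2 intensity was 11.47, 10.55, 10.79 and 10.26 in DCA livers, 9.98, 10.62, 10.50, 11.09 and 11.36 in PB livers, and 10.74, 11.03, 11.11 and 10.24 in control livers. The groups shared nearly all of their range. Differences were -0.07 ± 0.30 between PB and control (limma, SE; 95% interval -0.70 to 0.57), -0.01 ± 0.31 between DCA and control (-0.68 to 0.66) and 0.06 ± 0.30 between DCA and PB (-0.58 to 0.69). Without PB replicate 1, the PB liver with the least Slc40a1, PB and control differed by 0.11 and DCA and PB by -0.13.

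The mean of 11 Kupffer cell markers ran from 6.67 to 6.98 in DCA livers, from 5.89 to 6.98 in PB livers and from 6.37 to 7.84 in control livers, with Cd5l detected on no array. The lowest PB value was that of PB replicate 1, and the other PB livers ran from 6.50 to 6.98. The highest control value was that of control replicate 2, and the other control livers ran from 6.37 to 6.56. Of these markers, 0 lay higher and 11 lower in PB against control, and 8 and 3 in DCA against control. Among all tested genes 49% lay higher in each. The medians of the marker mean, 6.84 in DCA, 6.71 in PB and 6.50 in control livers, did not place PB below control. The marker mean had r of 0.43 with Slc40a1 over 13 arrays (permutation p = 0.138, adjusted p = 0.415) and rho of 0.37 (permutation p = 0.209, adjusted p = 0.626). Without control replicate 2 and PB replicate 1, r was 0.117. In bulk liver, fewer cells of a type and less RNA per cell cannot be told apart.

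Cp encodes ceruloplasmin, the plasma ferroxidase that loads exported iron onto transferrin. Across replicates, Cp read 12.22, 11.96, 11.44 and 11.47 in DCA livers, 11.79, 11.82, 11.46, 11.85 and 12.07 in PB livers, and 11.79, 11.84, 11.52 and 11.91 in control livers, as log2 intensity. All 13 livers lay within 1.71-fold of each other. The group differences were 0.03 ± 0.18 for PB against control (limma, SE; 95% interval -0.34 to 0.41), 0.01 ± 0.19 for DCA against control (-0.39 to 0.41) and -0.02 ± 0.18 for DCA against PB (-0.40 to 0.35), the narrowest intervals beside those of Fth1.

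Fth1 encodes the heavy chain of ferritin, the shell that stores iron in cells. Replicate values of its log2 intensity were 13.39, 13.57, 13.57 and 13.61 in DCA livers, 14.09, 13.71, 13.86, 13.57 and 13.91 in PB livers, and 13.61, 13.64, 13.67 and 13.33 in control livers. In PB livers 4 of 5 values were above all DCA and control values, and replicate 4 was the exception. PB and control differed by 0.27 ± 0.13 (limma, SE; adjusted p = 0.498; 95% interval -0.00 to 0.54), DCA and PB by -0.29 ± 0.13 (adjusted p = 0.309; -0.56 to -0.02), and DCA and control by -0.02 ± 0.13 (adjusted p = 0.995; -0.31 to 0.26). Fth1 was the steadiest gene of the set, with a within-group SD of 0.16 that exceeded that of only 11.6% of tested genes, and it spanned 1.70-fold.

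Fth1 and Trf were among the bright rows, with raw intensities up to 17433 for Fth1 and 22081 for Trf, where the brightest row of an array read 17144 to 25657. Whether such signals saturate was not tested. Fth1 ran opposite to Tfr2 across livers, with r of -0.79 over 13 arrays, as a description of 1 pair among 28. Without PB replicate 1, which had both the lowest Tfr2 and the highest Fth1, r was -0.60. PB livers had the lowest group mean of Tfr2 (9.13) and the highest of Fth1 (13.83), so both values of r include differences between groups. The r within groups was not computed. The light chain gene Ftl1 was detected on 0 of 13 arrays, with a lowest detection p-value of 0.301 and raw intensities of 86.4 to 109, so its row was not well above background and no fold is given.

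**Figure D4:**
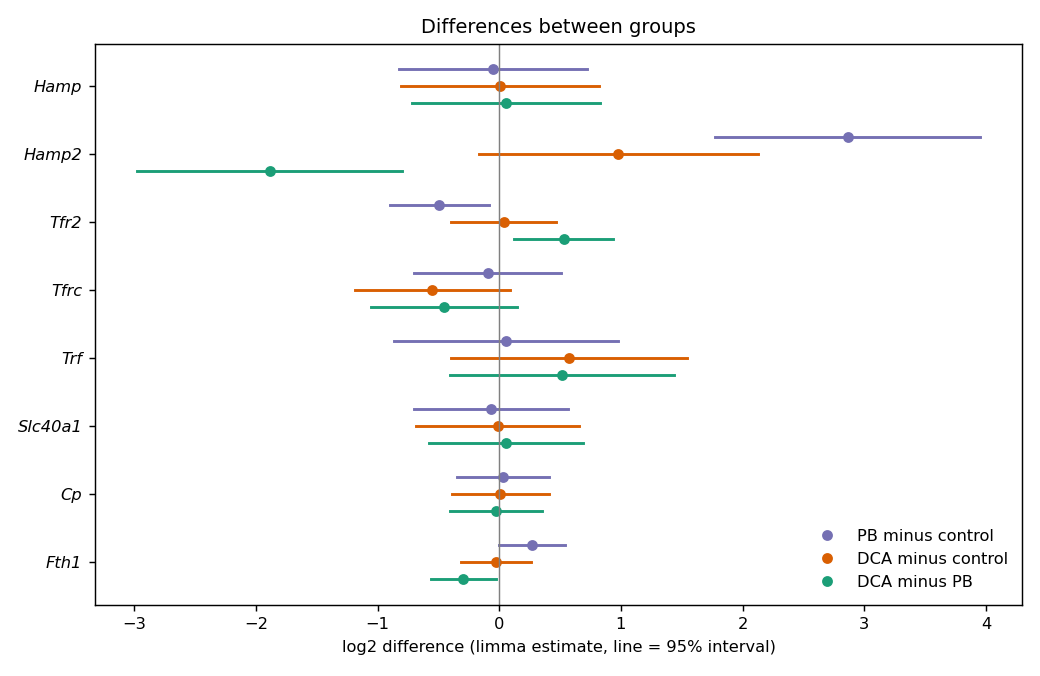
Log2 differences of the 8 tested iron genes for PB minus control, DCA minus control and DCA minus PB, as limma estimates (points) with 95% intervals (lines). Hamp2 lies at 2.86 for PB minus control and -1.89 for DCA minus PB, and the intervals of Hamp, Trf, Slc40a1, Cp and Tfrc include 0 in every comparison.

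None of the 8 tested members passed the threshold over all genes in limma. For PB against control, 0 of 8 passed an adjusted p of 0.05 in limma where 0.083% of 8431 tested genes did, 2 of 8 had an unadjusted p under 0.05 against 10.1% of all genes, and 1 of 8 (Hamp2) had groups that did not overlap against 3.48% of all genes. For DCA against control, 0 of 8 passed where 0% of all genes did, 0 of 8 had an unadjusted p under 0.05 in limma against 4.38%, and 0 of 8 did not overlap against 2.41%. For DCA against PB, 0 of 8 passed where 0.107% of all genes did, 3 of 8 (Hamp2, Tfr2 and Fth1) had an unadjusted p under 0.05 in limma against 14.5%, and 1 of 8 (Hamp2) did not overlap against 5.98%. The F test over the groups passed for 0 of 8 members and for 0.107% of all genes, with a limma adjusted p of 0.0925 for Hamp2 and 0.373 for Tfr2. The median member difference was -0.01 for PB against control, 0.01 for DCA against control and 0.02 for DCA against PB, beside medians over all genes of -0.01, -0.01 and 0.00. As Hamp2 was in view when the genes were chosen, nothing is read from these shares.

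The wider iron pathway was described through 9 further lists, which bring the tested iron genes to 77 with the members. Of these 77, 0 passed in limma in any comparison. An unadjusted p under 0.05 was found for 11 (14.3%) in PB against control, 1 (1.3%) in DCA against control and 16 (20.8%) in DCA against PB, beside 10.1%, 4.38% and 14.5% of all tested genes. Leaving out Hamp2 and Gdf15, 9, 1 and 14 remain. Against control, 28 lay higher and 49 lower in PB livers (median -0.07), and 43 higher and 34 lower in DCA livers (median 0.01). Between DCA and PB, 46 lay higher and 31 lower (median 0.11). Of all tested genes, 49% lay higher in PB and 49% in DCA livers against control, and 49.5% in DCA against PB. With median scaling the iron genes split into 37 higher and 40 lower in PB livers against control, 38 and 39 in DCA livers against control, and 41 and 36 between DCA and PB, while 65%, 43.3% and 35.1% of all genes lay higher. The counts of higher and lower genes thus depend on the scaling, and those of the lists below are given without median scaling. With both scalings the share of iron genes lying higher was below that of all genes in PB against control (36.4% and 48.1%). It was above that of all genes in DCA against control (55.8% and 49.4%) and in DCA against PB (59.7% and 53.2%). Whether these shares differ from those of all genes was not tested. All of these comparisons draw on the same 13 arrays and share groups.

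Of the genes that induce hepcidin through BMP and HFE, 11 were tested, with 6 higher and 5 lower in PB against control, 8 and 3 in DCA against control, and 7 and 4 in DCA against PB. Smad1, a transducer of BMP signals, differed by -0.28 ± 0.12 between DCA and PB (limma, SE; adjusted p = 0.297). Of 5 tested BMP target genes, 1 was higher and 4 were lower both in PB and in DCA livers against control. Of the interleukin-6 and activin arm, 8 were tested, with 1 higher and 7 lower in PB against control and 5 higher and 3 lower in DCA against control. Il6 itself was detected on no array. Socs3, the feedback inhibitor of interleukin-6 signalling, averaged 6.34 in DCA livers, 7.04 in PB livers and 7.12 in control livers, and differed by -0.78 ± 0.29 between DCA and control (limma, SE; adjusted p = 0.995) and by -0.70 ± 0.28 between DCA and PB (adjusted p = 0.277). With background fitted on all rows these were -0.38 and -0.37.

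Among 3 tested suppressors of hepcidin, Gdf15, a stress-induced cytokine, lay between 6.01 and 6.87 in DCA livers, between 6.23 and 7.40 in PB livers and between 5.65 and 6.18 in control livers. PB and control livers did not overlap, and the difference was 0.93 ± 0.22 (limma, SE; adjusted p = 0.187), against 0.43 ± 0.24 for DCA and control (adjusted p = 0.995). With other background handling or the authors' normalized table the PB difference was 0.36 to 0.49. Tmprss6, the protease that cleaves the BMP co-receptor hemojuvelin and so lowers hepcidin, averaged 8.48 in DCA livers, 7.76 in PB livers and 8.05 in control livers. It differed by 0.72 ± 0.24 between DCA and PB (limma, SE; adjusted p = 0.234) and by 0.43 ± 0.26 between DCA and control (adjusted p = 0.995). Fam132b, which encodes erythroferrone, was detected on no array.

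Iron uptake genes (7 tested) lay higher and lower in 2 and 5 cases for PB against control, 2 and 5 for DCA against control, and 4 and 3 for DCA against PB. Steap2, a metalloreductase, differed by -0.78 ± 0.25 between PB and control (limma, SE; adjusted p = 0.351), was detected on 2 of 5 PB arrays, and differed by -0.12 to -0.28 with other background handling or the authors' normalized table. The 3 tested export and storage genes Ncoa4, Pcbp1 and Pcbp2 had medians of 0.00 for PB against control, 0.29 for DCA against control and 0.31 for DCA against PB. Egln2, an oxygen- and iron-dependent prolyl hydroxylase in a list of 6 tested sensors, differed by -0.58 ± 0.22 between PB and control (limma, SE; adjusted p = 0.423), and by -0.23 with background fitted on all rows.

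Heme genes (16 tested) lay higher and lower in 6 and 10 cases for PB against control, 10 and 6 for DCA against control, and 8 and 8 for DCA against PB. Slc46a1, which encodes a folate transporter that also carries heme, averaged 8.08 in DCA livers, 7.15 in PB livers and 7.80 in control livers, and differed by 0.94 ± 0.27 between DCA and PB (limma, SE; adjusted p = 0.178). Ppox, an enzyme of heme synthesis, differed by -0.43 ± 0.25 between DCA and control (limma, SE; adjusted p = 0.995), and by -0.23 with background fitted on all rows. Of 10 tested genes of mitochondrial iron and iron-sulfur clusters, 2 were higher and 8 lower in PB against control, with a median of -0.15. Groups did not overlap for 3 of the 77 genes (3.9%) in PB against control, which were Hamp2, Gdf15 and Urod, a heme synthesis enzyme named after its values were seen, for 0 in DCA against control and for 6 (7.79%) in DCA against PB. The shares over all genes were 3.48%, 2.41% and 5.98%, so these counts are not read as a result about iron genes.

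**Figure D5:**
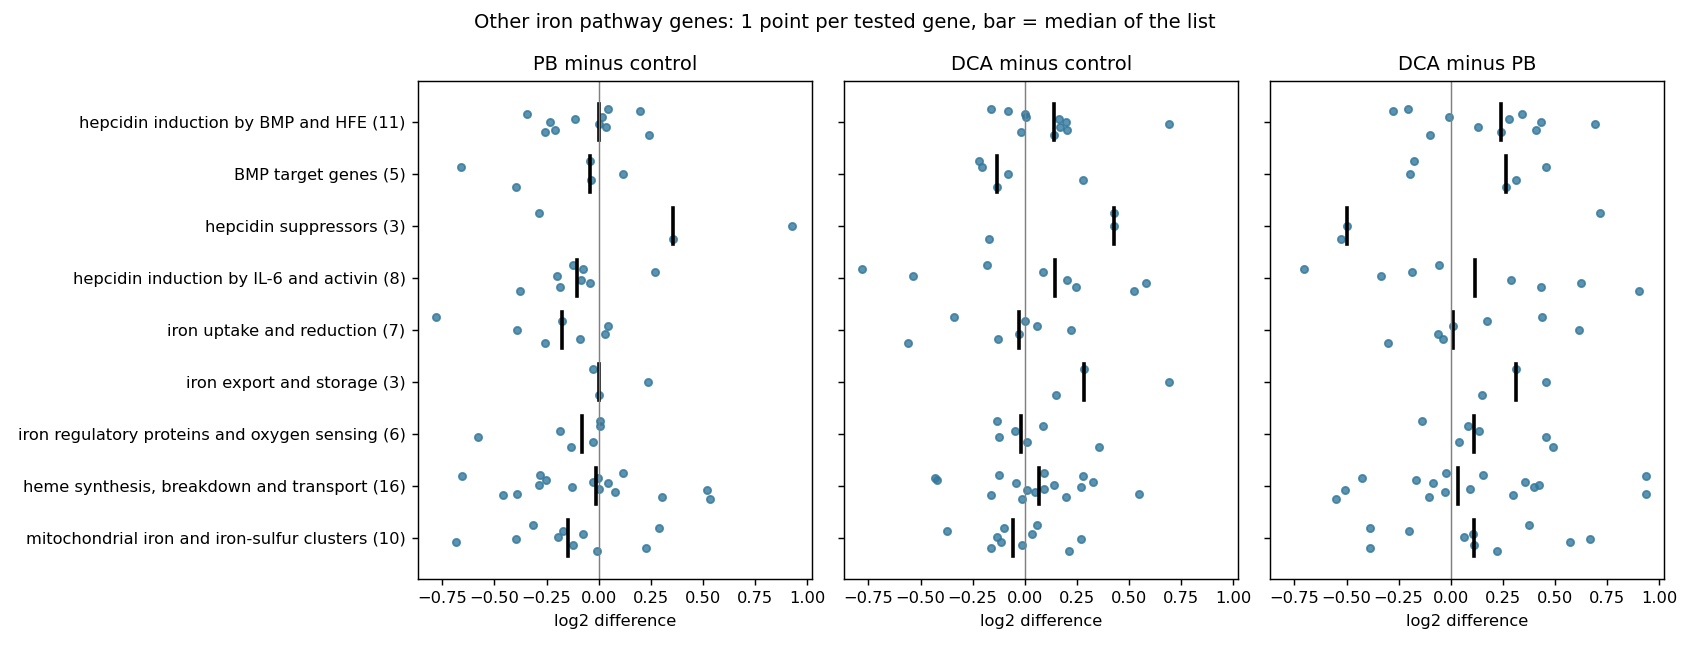
Log2 differences (x axis) of the other tested iron pathway genes in 9 lists, 1 point per gene with list medians as bars and the number tested in brackets, for PB minus control, DCA minus control and DCA minus PB. Points lie on both sides of 0 in nearly every list, and Gdf15 is the rightmost point for PB minus control at 0.93.

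Markers of red cells and of inflammation, both tied to iron, stood beside these genes. The mean log2 intensity of 8 tested erythroid markers ran from 6.85 to 7.19 in DCA livers, from 6.66 to 7.19 in PB livers and from 7.25 to 7.75 in control livers, so every treated liver lay below every control liver. Of these 8, 6 were lower and 2 higher in PB against control (median -0.57) and also in DCA against control (median -0.63), with 0 past the threshold in limma and 4 at an unadjusted p under 0.05 in each. The shares of all tested genes under 0.05 were 10.1% and 4.38%. Groups did not overlap for 3 and 2 of the 8, beside 3.48% and 2.41% of all genes. The higher markers were Rhag (0.05) and Spna1 (0.03) in PB livers, and Alas2 (0.55) and Klf1 (0.16) in DCA livers. Among the lower were Hba-a1 (-0.75), Hbb-b1 (-0.96), Hbb-b2 (-1.07) and Slc4a1 (-1.20) in PB livers. In DCA livers the same genes differed from control by -0.89, -1.12, -1.03 and -1.06. Slc4a1 was detected on 9 of 13 arrays. Epb4.2, Rhd, Kel, Gata1 and Ermap were detected on no array, whereas Hba-a1 and Alas2 were detected on all 13. The part of red cell RNA in the differences of the iron genes was not tested.

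The erythroid mean had r of 0.21 with Tfrc over 13 arrays (permutation p = 0.489, adjusted p = 0.642; rho 0.25, permutation p = 0.413, adjusted p = 0.678). Of 18 acute phase genes, 2 lay higher and 16 lower in PB against control and 3 and 15 in DCA against control, with 0 past the threshold in limma and 3 and 1 at an unadjusted p under 0.05. Among all tested genes 49% lay higher in each comparison, and 10.1% and 4.38% had an unadjusted p under 0.05. The mean and the correlation that follow are those of the acute phase genes. Their mean ran from 10.39 to 10.89 in DCA livers, from 10.20 to 11.19 in PB livers and from 10.49 to 11.47 in control livers. Its r with Hamp was -0.23 (permutation p = 0.458, adjusted p = 0.642; rho -0.23, permutation p = 0.452, adjusted p = 0.678). Means of 11 sinusoidal endothelial markers, the cells that make BMP6, were 6.44 to 6.76 in DCA livers, 5.40 to 6.92 in PB livers (6.47 to 6.92 without PB replicate 1) and 6.04 to 6.68 in control livers. Neutrophil markers (3 tested) averaged 4.85 to 5.53 in DCA livers, 5.02 to 5.73 in PB livers and 4.64 to 6.75 in control livers.

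The genes most like each hepcidin gene across the 13 arrays, by Pearson's r of log2 levels and with no test, were not shared between them. For Hamp the highest were Trim8 (r = 0.85), LOC100048504 (0.84), Uimc1 (0.81), AI314180 (0.80) and Exoc3l (0.80). The lowest for Hamp were Slc30a7, a zinc transporter (-0.88), Rpo2tc1 (-0.86), Nrbf2 (-0.86), Taf11 (-0.83) and Rnf121 (-0.81). For Hamp2 the highest were Gca (0.87), Lsm10 (0.86), LOC100043671 (0.86), 2310022B05Rik (0.86) and 4430402I18Rik (0.86), and the lowest were 2310008H09Rik (-0.91), Bad (-0.90), Ndufa2 (-0.89), Pigt (-0.88) and Itgb1bp1 (-0.88). Once group means were subtracted, r with Hamp2 ran from 0.48 (Gca) to 0.80 (Lsm10) among the 5 highest, with LOC100043671 at 0.58. Among the 5 lowest it was -0.92 for 2310008H09Rik, -0.57 for Bad, -0.74 for Ndufa2, -0.59 for Pigt and -0.74 for Itgb1bp1.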

How the data were processed

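Liver RNA of 13 mice (4 DCA, 5 PB, 4 control) was measured, 1 Illumina array per mouse. The authors deposited, for each gene and array, an intensity that is linear and not yet normalized, with its detection p-value. Per the submitters' processing notes GenomeStudio was used, of a version not named there. A second deposited table holds intensity values that the authors had normalized by steps no source here names. It served as an alternative, and its column medians lie between 107 and 107.67.

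Background was corrected with normexp of limma 3.58.1 in R 4.3.3, with an offset of 16 and the noise fitted on 13668 rows whose detection p-values, multiples of 1/798, belong to single probes. Quantile normalization and log2 followed. A gene was tested if it was detected (p-value under 0.05) on 4 or more arrays, which left 8431. These were fitted with lmFit and eBayes as group means over all arrays, two-sided, with Benjamini-Hochberg adjustment over all 8431 and a threshold of 0.05. Differences are the first group named minus the second, with limma's SE, and group values are means ± SD. P-values measure the spread between mice, and the number of arrays limits the precision. The fit was tested on simulated data.

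Of 7 relations planned across arrays, 6 were computed, each with 100000 permutations of the arrays, two-sided. Members, lists and relations were chosen with earlier results of these data known. Every member was named, and from the pathway lists up to 3 genes per direction and comparison by smallest unadjusted p. Lists overlap in part: Alas2 is a heme and an erythroid gene, and Hp, Hpx, Lcn2 and Socs3 are also acute phase genes. Alternatives were the background fit, offset, scaling, the authors' table, the detection filter, array weights, only the groups compared, and leaving out each array. Correlations of member pairs without single arrays were chosen after seeing the data. Replicate numbers follow the order of the deposit and pair nothing. Promoter sequences are RefSeq, build GRCm38.p6.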

Additional observations from a re-analysis of the deposited data

Results flagged for a closer look

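In 3 of 42 group values tested, 1 array lay far from the others of its group, where chance flags about 1 in 20. Fth1 in DCA replicate 1 was 13.39, below the other DCA livers at 13.57 to 13.61. Tfr2 in PB replicate 1 was 8.52, below the other PB livers at 9.17 to 9.39, and this array also stood apart on the second principal component. The mean of the Kupffer cell markers in control replicate 2 was 7.84, above the other control livers at 6.37 to 6.56.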

How the results depend on the processing

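Among 77 iron genes, PB against control gave 0 calls in the fit reported, and 1, Hamp2, when genes had to be detected on all 13 arrays (limma adjusted p = 0.0374), 1 with array weights, and 0 to 1 when each array was left out (1 without PB replicate 4). DCA against PB gave 4 with array weights (Hamp2, Egln2, Slc46a1 and Tmprss6) and the F test 1. Over all alternatives the Hamp2 difference between PB and control was 2.50 to 3.15, between DCA and PB -2.15 to -1.52, and between DCA and control 0.66 to 1.27. Calls among all genes ran from 1 to 13 for PB against control, 0 to 0 for DCA against control, 0 to 298 for DCA against PB and 0 to 52 for the F test, the highest of the last pair with array weights. Median scaling moved the median of all genes by 0.129 for PB against control and -0.14 for DCA against PB. Smad1 between DCA and PB was -0.13 with background fitted on all rows. Pearson's r of Id1 and Hamp was 0.652 without DCA replicates 3 and 4, 0.565 with background fitted on all rows and 0.661 with none. Each r was no longer past the threshold. In both background settings rho stayed at 0.75 and past it (permutation, adjusted p = 0.0302), while without these arrays rho was 0.58 (permutation, adjusted p = 0.399). Pearson's r of Hamp and Hamp2 turned to 0.0151 after group means were subtracted, and that of Trf and Tfrc to 0.0057 without 2 arrays. The cause of these changes was not tested. Of the log2 differences, 1043 kept within their spread and 7 moved. No paired analysis was possible because the replicate numbers follow the order of the deposit and the labels pair no mice across groups. The Ftl1 and Bmp6 rows stay at background on all arrays, which limits what can be said of them.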
